A study of Mus musculus with 12 samples.

Results

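The respiratory chain genes described here are the protein-coding genes whose symbols name subunits or close partners of complexes I to V, that is Nduf, Sdha to Sdhd, Uqcr, Cox4 to Cox8 and Atp5 in the nucleus, and mt-Nd, mt-Cytb, mt-Co and mt-Atp in mitochondrial DNA. They were chosen by symbol alone, and 111 of the 56065 genes in the deposited table carried such a symbol. Of these, 98 are nuclear and 13 are encoded by mitochondrial DNA. The nuclear genes comprise 38 complex I genes, 8 Ndufaf assembly factors of complex I, 4 genes of complex II, 8 of complex III, 21 of complex IV and 19 of complex V. The mitochondrial genes comprise 7 of complex I, 1 of complex III, 3 of complex IV and 2 of complex V.

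The series measured RNA of the whole submandibular gland (SMG) by bulk RNA sequencing in C57BL/6J mice and in mice of the same background that carry the em1Cbwi knockout allele of Pou2f3 (Pou2f3-/-), a transcription factor gene required for tuft cells. All mice were 8 weeks old. There were 4 groups of 3 libraries each, wild type (WT) females, knockout (KO) females, WT males and KO males, so that the genotype could be compared within each sex and the sexes within each genotype. The libraries were labelled as separate mice, and the KO is constitutive, so a difference between genotypes is not restricted to any cell type of the gland.

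The respiratory chain sits in the inner mitochondrial membrane. Complexes I and II pass electrons from NADH and succinate to coenzyme Q, complex III passes them to cytochrome c, complex IV passes them to oxygen, and complex V uses the proton gradient so built to make ATP. Complexes I, III, IV and V are assembled from subunits of both genomes, whereas complex II is encoded by nuclear genes alone. In the salivary gland, striated duct cells are known for dense stacks of mitochondria that fuel ion transport, and acinar cells use ATP for fluid and protein secretion.

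The targeted gene gave too few reads to check the labels. Pou2f3 had estimated counts of 1, 0 and 2 in the WT females, 0, 0 and 0 in the KO females, 1, 10 and 0 in the WT males, and 0, 3 and 1 in the KO males. The total estimated count per library was 47032175 to 67882207. Values are given below as CPM, the usual counts relative to library size, here with sizes scaled by TMM, a method that sets the typical gene equal between libraries. Before that scaling, 3 counts correspond to 0.0442 to 0.0638 CPM. The 7SL RNA gene Rn7s1 took 11.8% to 39.1% of the counts, and this share differed with the group. It was 27.0% to 34.5% in the WT females, 31.3% to 39.1% in the KO females, 11.8% to 21.3% in the WT males and 20.5% to 26.9% in the KO males. The part of this share in the comparisons was not tested. The KO female 3 and WT male 3 libraries stood apart, with the Dcpp genes of the neighbouring sublingual gland high in these libraries alone, and WT male 3 also held 8.76% of 18S ribosomal RNA. Markers of acini were abundant. The list, which also holds the Dcpp genes and takes most of its level from Prol1, a secreted acinar product, had summed levels of 41102 to 47627 CPM in WT females, 26254 to 32840 in KO females, 9271 to 13910 in WT males and 7168 to 9354 in KO males. Markers of the granular convoluted tubule, the androgen-dependent duct segment of this gland, summed to 4775 to 9965 CPM in the females and to 62343 to 109090 in the males. In whole tissue, fewer cells of a type and less RNA per cell cannot be told apart, so every level below is a level in the RNA of the gland.

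Of the 111 genes, 104 passed the filter on low counts and were tested among 17893 genes, 91 nuclear and all 13 mitochondrial ones, and 103 of the 104 had at least 10 counts in every library. The 7 that did not pass were all nuclear. Cox4i2, a lung-enriched form of the COX4 subunit, had 38 counts over the 12 libraries. Cox6a2, the heart and muscle form of COX6A, had 6 counts, and Cox8c, a testis form of COX8, had 1. The pseudogene-named Cox5b-ps had 18.3, and Ndufb11b, Cox7b2 and a further Atp5po entry had none. The tissue-restricted forms were thus at or near the floor, while their widely expressed counterparts were among the highest nuclear genes.

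Per kilobase of transcript, each mitochondrial gene had a higher median over the 12 libraries than any nuclear gene. In the males the ranges met, with Atp5f1b, the highest nuclear gene, at a mean of 198 CPM per kilobase in KO males, above mt-Atp8 at 78.6 and mt-Nd5 at 90.1, and at 216 in WT males, above mt-Nd6 at 149. The median level over the 12 libraries reached 2877 CPM per kilobase for mt-Co1, the catalytic subunit of complex IV. The mitochondrial class medians were 265 CPM per kilobase in complex I, 843 in complex III, 995 in complex IV and 269 in complex V. The complex IV median is that of mt-Co3, and the complex V median lies between mt-Atp6 and mt-Atp8. Levels of mt-Co3 and mt-Atp6 depend on how reads were split with near-identical nuclear copies, as given below, so these 2 class medians are uncertain. The nuclear class medians were 12.6 in complex I, 1.43 for the assembly factors, 17.3 in complex II, 23.8 in complex III, 31.1 in complex IV and 23.9 in complex V. The highest nuclear gene was Atp5f1b, the catalytic beta subunit of ATP synthase, at 181 CPM per kilobase, followed by Atp5f1a, its alpha subunit, at 124, and both held these places by their means in all 4 groups. Cox8a, a small structural subunit of complex IV, had a median of 99.6, but in females its means were below those of Atp5mg, at 45.1 against 69.7 in KO and 85.4 against 97.6 in WT. In complex I the highest nuclear gene was Ndufb8 at 51.7 and in complex III the core subunit Uqcrc1 at 50.05. In complex II it was the flavoprotein subunit Sdha at 25.6, except that Sdhd was higher in WT females, at 24.5 against 22.6.

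Mitochondrial genes share nucleotides and have nuclear copies, which bears on how reads are split between them. The stretches shown are those shared by neighbouring genes, in GRCm39 coordinates on the plus strand, and those shared with a nuclear copy. The latter are numbered along the transcript of each gene, in its own direction. On chrM:7915-7981 the capitals mark the 43 bases, chrM:7927-7969, that belong both to mt-Atp8 and to mt-Atp6, which encode subunits of the proton-conducting part of complex V. On chrM:10155-10185 the capitals mark the 7 bases, chrM:10167-10173, shared by mt-Nd4l and mt-Nd4, which encode membrane subunits of complex I.
mt-Atp8 and mt-Atp6: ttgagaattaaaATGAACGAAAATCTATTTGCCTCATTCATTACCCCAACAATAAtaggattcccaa
mt-Nd4l and mt-Nd4: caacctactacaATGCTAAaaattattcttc
The ends of mt-Atp6 and mt-Co3 share 1 base, and mt-Nd5 and mt-Nd6 overlap by 14 bases on opposite strands. The library kit marks strand, but the strand setting of the counting is not given in the sources used here.

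A block on chromosome 1, chr1:24650616-24655278 in GRCm39, holds 7 nuclear pseudogene copies of the mitochondrial genes. The copy Gm28437 equalled mt-Co3, a core subunit of complex IV, at every one of 783 aligned bases, and the copy Gm29216 matched mt-Co1 at 99.793% of 483 bases. The first 60 bases of mt-Co3 and of Gm28437, and a stretch that holds the single difference between mt-Co1 and Gm29216, in capitals, are these.
mt-Co3, bases 1 to 60: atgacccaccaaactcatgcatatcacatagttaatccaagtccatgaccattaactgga
Gm28437, bases 1 to 60: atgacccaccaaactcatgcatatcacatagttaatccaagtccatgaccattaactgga
mt-Co1, bases 1063 to 1122: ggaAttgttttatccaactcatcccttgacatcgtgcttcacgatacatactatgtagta
Gm29216, bases 10 to 69: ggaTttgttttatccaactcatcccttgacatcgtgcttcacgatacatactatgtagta
A fragment from within an identical stretch can be assigned to either gene. Over all libraries, mt-Co3 was assigned 576318 counts and Gm28437 was assigned 941483, and mt-Atp6 was assigned 149812 and its copy Atp6-ps, equal over 678 bases, 417422. Levels of mt-Co3 and mt-Atp6 are therefore uncertain, and their sums with the copies are given after the main comparisons. In all, 28 of the 111 genes had a copy of at least 97% identity over at least 80% of the shorter transcript.

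The first comparison asked how the genotype altered the respiratory chain genes in females. In the KO females, 67 of the 104 genes were lower and 0 were higher than in the WT females (edgeR's quasi-likelihood test, Benjamini-Hochberg adjusted p under 0.05 over all genes tested). Over all genes tested, 19.3% were called lower and 17.6% higher. Every KO female lay below every WT female for 24.1% of all genes tested, and above for 25.2%, so a lack of overlap is common in this comparison. All 67 were nuclear, or 67 of 91 nuclear genes tested. The median log2 fold change (KO against WT) of the nuclear genes was -0.63, beside a median of 0.03 over all genes tested. Without KO female 3, 64 genes were called lower and the nuclear median was -0.62. None of the 13 mitochondrial genes was called, all 13 estimates were below 0, and their median was -0.34. This median was -0.52 without WT female 1 and -0.28 without KO female 3.

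This difference is one of scaled levels, relative to the typical gene. The summed nuclear genes stood at 2339, 2822 and 2942 CPM in the WT females against 1736, 1792 and 1605 in the KO females, and these do not overlap. As an unscaled share of all counts they took 0.178%, 0.192% and 0.184% in the WT females and 0.179%, 0.162% and 0.159% in the KO females, and these ranges overlap. The TMM factors were 0.625 to 0.759 in the WT females and 0.902 to 1.03 in the KO females, and how much of the difference in scaled level comes from these factors was not tested beyond the 4 other scalings, under which 63 to 71 genes were called lower.

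**Figure D1:**
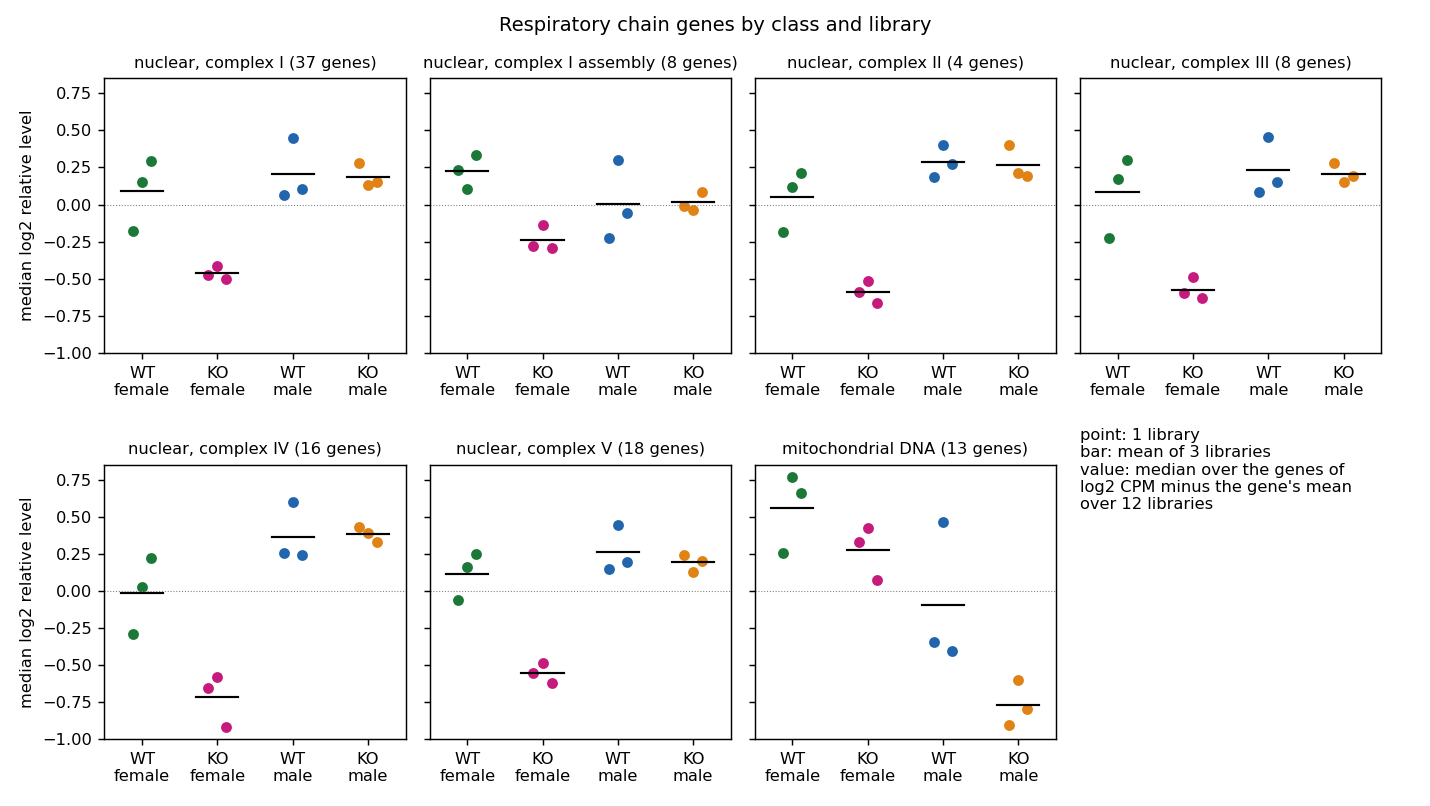
Median level of each class of respiratory chain genes in each of the 12 libraries, as log2 CPM minus the gene's mean over the libraries (vertical axis), by group (horizontal axis), with 1 point per library and a bar at the mean of 3. The KO females lie below all WT females in every nuclear class, whereas for the 13 genes of mitochondrial DNA the KO males lie lowest, at -0.60 to -0.90.

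In complex I, 30 of 37 nuclear genes tested were lower in the KO females, with a class median of -0.57. Ndufb9, an accessory subunit of the membrane arm, stood at 31.6, 34.3 and 37.4 CPM in the WT females and at 15.0, 16.1 and 15.1 in the KO females. The groups are far apart and the KO libraries lie close together, and the log2 fold change was -1.16 (SE 0.11, adjusted p = 8.26e-05 by edgeR). Ndufs6, a zinc-binding subunit of the peripheral arm, stood at 13.3, 13.6 and 15.5 CPM in the WT females and at 6.49, 7.10 and 6.73 in the KO females. Its groups do not overlap either, and it fell by 1.06 on the log2 scale (SE 0.14, adjusted p = 0.00028 by edgeR).

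The 7 complex I genes that did not pass the test were Ndufa13, Ndufab1, Ndufb2, Ndufb4, Ndufb7, Ndufb10 and Ndufv3. Ndufb7, an accessory subunit, had the highest estimate of the complex, with 4.28, 4.40 and 4.25 CPM in the WT females and 6.39, 4.50 and 4.67 in the KO females, and a log2 fold change of 0.27 (adjusted p = 0.187 by edgeR). Ndufv3, a subunit next to the NADH site, was the only other one with an estimate above 0, at 0.13 (adjusted p = 0.387 by edgeR). The rest had estimates below 0, from -0.34 for Ndufb2 to -0.06 for Ndufab1. The difference was therefore not called for every subunit. Ndufb4 summed with its near-identical copies was called lower, as given below.

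Of the 8 Ndufaf genes, which encode factors that help to build complex I and are not part of it, 2 were lower, and the median of the 8 was -0.45. Ndufaf4 stood at 16.4, 18.9 and 19.8 CPM in the WT females and at 12.52, 12.97 and 13.63 in the KO females, without overlap, with a log2 fold change of -0.49 (adjusted p = 0.0153 by edgeR). Ndufaf7, a methyltransferase that modifies a complex I subunit, fell by 0.45 on the log2 scale (adjusted p = 0.0235 by edgeR), a call that was lost under upper-quartile scaling, the divisors of the deposited normalized table, no filter on low counts and without KO female 1. Ndufaf2 was low, at 0.391 to 0.579 CPM over the 6 female libraries, and its log2 fold change was 0.04 (adjusted p = 0.952 by edgeR).

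All 4 genes of complex II, the one complex without a mitochondrial subunit, were lower in the KO females, with a median of -0.61. Sdhd, a membrane anchor, stood at 29.2, 30.8 and 32.6 CPM in the WT females and at 17.3, 18.8 and 15.5 in the KO females. The WT and KO libraries do not overlap, and the log2 fold change was -0.84 (SE 0.11, adjusted p = 0.000252 by edgeR). Sdha, the flavoprotein that oxidises succinate, stood at 59.2, 71.8 and 77.0 CPM against 47.8, 46.2 and 47.8, a log2 fold change of -0.55 (adjusted p = 0.00214 by edgeR). Sdhb, the iron-sulphur subunit, fell by 0.63 and Sdhc, the other anchor, by 0.59 on the log2 scale (adjusted p = 0.00241 and 0.00493 by edgeR). All 4 calls held under every alternative processing and with each female library left out.

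In complex III, all 8 genes were lower in the KO females, with a median of -0.66. Uqcrh, the hinge subunit that contacts cytochrome c1, stood at 20.01, 19.85 and 22.99 CPM in the WT females and at 11.4, 12.2 and 10.6 in the KO females. The groups do not overlap, and the log2 fold change was -0.88 (SE 0.13, adjusted p = 0.000478 by edgeR). Uqcrfs1, the Rieske iron-sulphur protein, fell by 0.66 on the log2 scale (adjusted p = 0.00163 by edgeR). The mitochondrial partner of these subunits, mt-Cytb, did not pass the test, with a log2 fold change of -0.43 (adjusted p = 0.141 by edgeR).

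In complex IV, 11 of 16 genes tested were lower, with a median of -0.75, the lowest of the nuclear classes. Cox7a2, the widely expressed form of COX7A, stood at 24.3, 29.6 and 32.8 CPM in the WT females and at 13.5, 14.1 and 13.1 in the KO females, and fell by 1.09 on the log2 scale (SE 0.12, adjusted p = 0.000186 by edgeR). Cox8a stood at 40.7, 51.8 and 52.0 CPM against 25.2, 27.3 and 23.9, a log2 fold change of -0.92 (adjusted p = 0.000249 by edgeR). For both, each KO female lay below each WT female. A further 5 widely expressed forms with a tissue-restricted counterpart were lower too. Cox7b fell by 0.94, Ndufa4 by 0.76, Cox4i1 by 0.73, Cox6a1 by 0.51 and Cox6b1 by 0.48 on the log2 scale (adjusted p = 0.00115, 0.00221, 0.000997, 0.0305 and 0.0246 by edgeR). The calls of Cox6a1 and Cox6b1 were lost under upper-quartile scaling and without KO female 3, WT female 2 or WT female 3.

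The tissue-restricted forms that passed the filter did not pass the test, and nor did Cox6c, a widely expressed subunit, at -0.21 (adjusted p = 0.295 by edgeR). Cox7a1, the heart and muscle form of COX7A, stood at 1.05, 0.875 and 1.95 CPM in the WT females and at 0.919, 0.654 and 0.493 in the KO females, and these overlap (log2 fold change -0.90, adjusted p = 0.0983 by edgeR). Ndufa4l2, a hypoxia-inducible relative of Ndufa4, had a log2 fold change of -0.31 (adjusted p = 0.491 by edgeR). Cox6b2, a testis form, was at 0.0214 to 0.235 CPM over the 12 libraries, with a log2 fold change of 0.24 in females (adjusted p = 0.82 by edgeR).

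In complex V, 12 of 18 genes tested were lower in the KO females, with a median of -0.69. Atp5pb, a subunit of the peripheral stalk, stood at 55.9, 61.4 and 68.1 CPM in the WT females and at 31.2, 38.7 and 32.0 in the KO females. The groups do not overlap, and the log2 fold change was -0.86 (SE 0.13, adjusted p = 0.000441 by edgeR). Atp5f1c, the central gamma stalk, fell by 0.76 on the log2 scale (adjusted p = 0.000568 by edgeR). Atp5if1, which encodes the inhibitor of the enzyme and no subunit, stood at 5.27, 5.43 and 5.24 CPM in the WT females and at 5.35, 5.35 and 5.19 in the KO females. Its log2 fold change of -0.00 (SE 0.14, adjusted p = 0.988 by edgeR) was the highest of the 18.

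Short transcripts were lower in the KO females also among other genes. Over other protein-coding genes, the median log2 fold change was -0.53 for transcripts of up to 600 bases, -0.38 from there to 1000, -0.23 to 2000, -0.10 to 4000 and 0.02 above 4000. The nuclear respiratory chain genes of the same lengths had medians of -0.63, -0.63, -0.64, -0.66 and -0.45. The share of other genes called lower was 31.7%, 34.4%, 30.0%, 23.9% and 19.6% in these 5 bins, and 12 of 17, 17 of 25, 18 of 24, 16 of 19 and 4 of 6 nuclear respiratory chain genes were called lower. The lowering of other genes thus differed with length, most of these genes are short, and the part of length in their lowering was not tested.

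Some cell type markers moved with the female result. The summed acinar markers were lower in each KO female than in each WT female, as given above, and 2 of 8 were called, Aqp5 at a log2 fold change of -0.94 and Lpo at -0.93. Of the other 6, Smgc, Prol1 and Bhlha15 were at -1.01, -0.54 and -0.25, and Dcpp1, Dcpp2 and Dcpp3, which were high in KO female 3, were at 3.20, 4.08 and 4.03. Summed duct and ionocyte markers were at 255 to 334 CPM in the WT and at 239 to 285 in the KO females, and overlapped. Of these 9 markers 3 were called lower, the keratin gene Krt8 at -0.45 and the ionocyte genes Foxi1 at -0.48 and Ascl3 at -0.95. At an unadjusted p under 0.05 by edgeR, 4 of the 9 had an estimate above 0, beside 4128 of all 17893 genes. Of 7 granular tubule markers 2 were called higher, among them Ren1 at 1.46. Summed fat markers were at 3.81, 10.2 and 87.5 CPM in the WT and at 3.65, 6.61 and 2.55 in the KO females. These overlap, and WT female 3 alone was far above the others, while 4 of 6 fat markers were called lower. Of 2 skeletal muscle markers tested, with estimates of -3.65 and -0.37, 1 was called lower. The part of these cell types in the result was not tested.

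Other genes of mitochondrial function, from lists drawn up by function, were counted in the same test. The lists of matrix and membrane function followed the direction of the chain. Of 13 genes of the tricarboxylic acid cycle, 11 were lower and 0 higher, with a median of -0.53, among them Cs, citrate synthase, at -0.60 and Ogdh, a subunit of the oxoglutarate dehydrogenase complex, at -0.53. Of 19 genes of mitochondrial membranes and import, 17 were lower and 1 higher, with a median of -0.66, among them Hspd1, the matrix chaperonin, at -0.84 and the channel gene Vdac2 at -0.66. Of 18 genes of electron carriers and coenzyme Q, 8 were lower and 1 higher, with a median of -0.35. Coq10b, which binds coenzyme Q, was the lowest of these with a log2 fold change of -1.65 (adjusted p = 2.04e-06 by edgeR). Of 45 other assembly factors, 20 were lower and 2 higher, with a median of -0.40, with Coa3 at -0.91 and Foxred1 at 1.03.

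For the lists of control and expression of the mitochondrial genome, the counts were near the shares over all genes tested, 19.3% lower and 17.6% higher, and are no result about these lists. Of 26 genes for transcription, replication and RNA handling of mitochondrial DNA, 6 were lower and 4 higher, with a median of 0.08. Tfb2m, a mitochondrial transcription factor, was at -0.79, whereas Polrmt, the mitochondrial RNA polymerase, was at 0.43. Of 14 regulators of mitochondrial biogenesis, 3 were lower and 3 higher, with a median of 0.07. Ppargc1b, a coactivator of respiratory genes, was higher with a log2 fold change of 1.15 (adjusted p = 0.000625 by edgeR). In males, 0 genes of each of these 6 lists were called in either direction.

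The second comparison was the same genotype difference in males. None of the 104 genes was called in the KO males, against 0.134% of all genes tested called lower and 0.101% called higher. At an unadjusted p under 0.05, 11 of the 104 were lower and 1 was higher by edgeR, beside 1054 lower and 1002 higher of all 17893 genes. Of the 11, 10 were mitochondrial, and the other was Ndufa5, a peripheral-arm subunit of complex I, while the higher one was Cox8b. The median log2 fold change was -0.02 for the nuclear genes and -0.66 for the mitochondrial genes, beside -0.04 over all genes tested. DESeq2, which called 181 of all 17893 genes lower and 225 higher, called 6 of the 104 lower, all mitochondrial, namely mt-Nd2, mt-Nd4, mt-Nd4l, mt-Nd5, mt-Nd6 and mt-Atp8, and the same 6 were called by edgeR when genes of low counts were kept, where 167 of 30910 genes were lower and 222 higher. Of the markers, 1 of 9 duct and ionocyte genes was called lower in the KO males, Foxi1 at -0.83 (adjusted p = 0.0434 by edgeR). At an unadjusted p under 0.05, 3 of 8 acinar markers were lower, and 3 of 4 blood and 5 of 6 fat markers were higher, and their part in the male values was not tested.

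For 10 of the 13 mitochondrial genes, every KO male was below every WT male, whereas 7.95% of all genes tested lay in this way. The exceptions were mt-Nd3, mt-Co2 and mt-Atp6 counted alone. With its near-identical copy added, mt-Atp6 did not overlap either, at 444, 551 and 450 CPM in the KO males against 592, 1047 and 595 in the WT males. The WT males were themselves spread, with summed mitochondrial genes of 7204, 12412 and 8009 CPM against 5686, 6071 and 5967 in the KO males. WT male 2 was the highest, the KO males lay close together, and the gap to the lowest WT male was smaller than the gap within the WT males. Without WT male 2, the mitochondrial median was -0.47, and without WT male 3 it was -0.82.

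Of the complex I genes of mitochondrial DNA, mt-Nd4l, mt-Nd5 and mt-Nd2 had the largest estimates in males. The membrane subunit gene mt-Nd4l stood at 63.3, 84.8 and 51.9 CPM in the WT males and at 27.97, 44.51 and 34.54 in the KO males, without overlap (log2 fold change -0.90, SE 0.22, adjusted p = 0.129 by edgeR). For mt-Nd5, a proton-pumping subunit, the values were 245, 438 and 232 CPM against 150, 169 and 173 (log2 fold change -0.89, adjusted p = 0.129 by edgeR). For mt-Nd2, another pumping subunit, they were 145, 257 and 132 CPM against 78.2, 121 and 101 (log2 fold change -0.83, adjusted p = 0.2 by edgeR). Each KO male was below each WT male in these 3 genes, with the WT males 1 and 3 near the KO range in mt-Nd2.

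The remaining complex I genes had log2 fold changes of -0.78 for mt-Nd4, -0.66 for mt-Nd1, -0.63 for mt-Nd6 and -0.48 for mt-Nd3 in males (adjusted p = 0.151, 0.253, 0.129 and 0.524 by edgeR). The gene mt-Cytb, which encodes cytochrome b of complex III, was at -0.59 (adjusted p = 0.306 by edgeR). Of complex IV, mt-Co1 stood at 3489, 5706 and 4137 CPM in the WT males and at 3030, 2924 and 2874 in the KO males (log2 fold change -0.59, adjusted p = 0.285 by edgeR), and mt-Co2 and mt-Co3, its other core subunits, were at -0.45 and -0.97. Of complex V, mt-Atp8 stood at 32.3, 43.6 and 20.8 CPM in the WT males and at 11.7, 18.8 and 17.6 in the KO males, with a log2 fold change of -1.01 (SE 0.25, adjusted p = 0.126 by edgeR, the smallest of the 104 genes). The overlapping gene mt-Atp6 was at -0.30 (adjusted p = 0.849 by edgeR). These estimates have 1 direction and none passed the threshold.

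**Figure D2:**
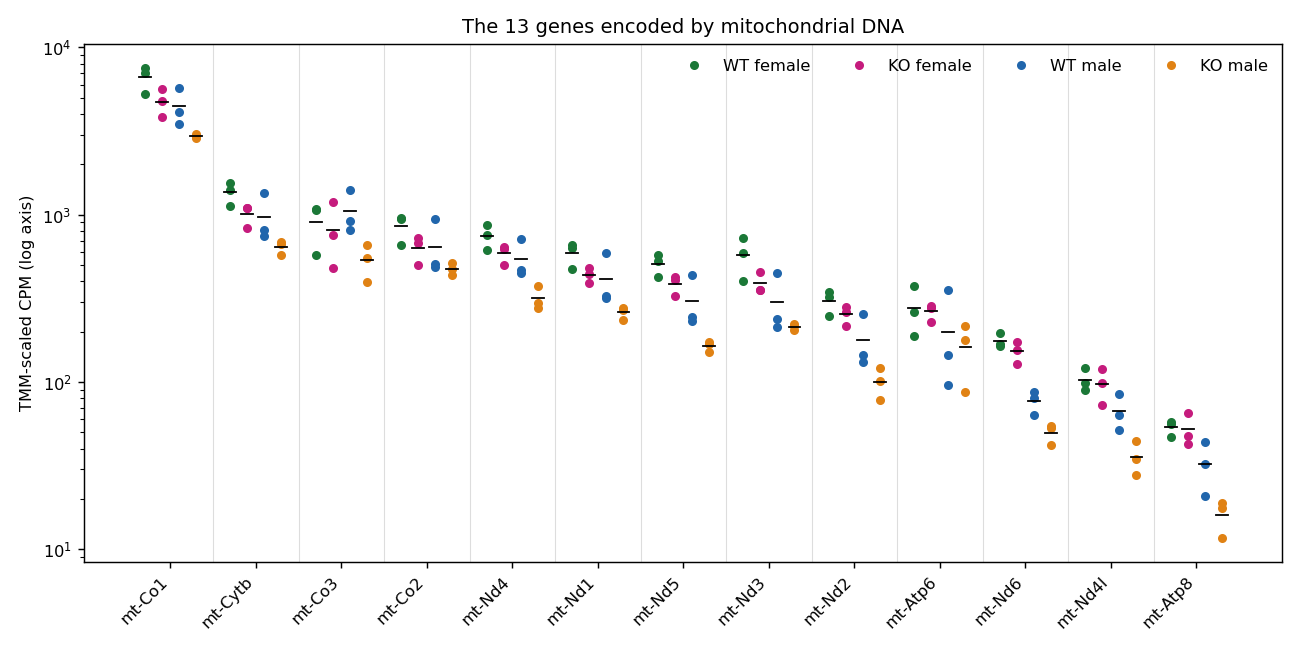
Level of each of the 13 genes of mitochondrial DNA in TMM-scaled CPM on a log axis (vertical), by gene (horizontal) and group (colour), with 1 point per library and a bar at the mean of 3. The KO males lie lowest for most genes, as for mt-Atp8 at 11.7 to 18.8 CPM, and the WT males spread widely.

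In females the 13 genes did not pass the test either. For none of them did the interaction pass, although mt-Atp8 and mt-Nd4l passed it under alternatives given below. The log2 fold changes in the KO females were -0.43 for mt-Nd1, -0.27 for mt-Nd2, -0.57 for mt-Nd3, -0.34 for mt-Nd4, -0.09 for mt-Nd4l, -0.40 for mt-Nd5, -0.22 for mt-Nd6, -0.43 for mt-Cytb, -0.48 for mt-Co1, -0.43 for mt-Co2, -0.17 for mt-Co3, -0.04 for mt-Atp8 and -0.06 for mt-Atp6. The smallest adjusted p of these by edgeR was 0.094, for mt-Co1, which stood at 5249, 7581 and 7044 CPM in the WT females and at 5622, 4753 and 3841 in the KO females. WT female 1 lay below KO female 1 for this gene, so the groups overlap.

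Whether the genotype difference itself differed between the sexes was tested as the interaction, the female log2 fold change minus the male one. The interaction was below 0 and called for 44 of the 104 genes and above 0 and called for 0 (edgeR), whereas 12.4% of all genes tested were called lower and 13.4% higher. All 44 were nuclear. The median interaction was -0.57 for the nuclear genes and 0.42 for the mitochondrial genes, beside 0.03 over all genes tested. Over other protein-coding genes it was -0.61 for transcripts of up to 600 bases and -0.46 from there to 1000. The nuclear respiratory chain genes of these lengths had -0.57 and -0.53. To 2000, to 4000 and above 4000 bases, other genes had -0.29, -0.13 and 0.04, and the nuclear respiratory chain genes -0.61, -0.61 and -0.53. The part of length in the interaction was not tested. The mitochondrial median was 0.14 without WT male 2. The count was 39 without KO female 3, 26 without WT male 3, 21 without WT male 1 and 72 without WT female 1, so that single libraries decide how many genes pass, and 21 of the 44 were called under every alternative. Fat and blood markers moved in the same direction, with 6 of 6 fat markers called below 0 (median -8.52) and 2 of 4 blood markers (median -3.58). Of the acinar, granular tubule and duct and ionocyte markers, 0 of 8, 0 of 7 and 0 of 9 were called. Their medians were above 0, at 2.33, 0.24 and 0.35, with 4 of 8, 5 of 7 and 7 of 9 estimates above 0. The part of all these markers in the result was not tested. The mitochondrial values above 0 did not pass the test, and the smallest adjusted p was 0.0575 for mt-Atp8. With the replicate number as a block, mt-Atp8 and mt-Nd4l were called, at 0.93 and 0.79 (adjusted p = 0.0306 and 0.0162 by edgeR). Both were also called by DESeq2 and by edgeR without a filter on low counts.

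The 44 genes came from all 5 complexes. In complex I, 14 of 37 were called, with Ndufb9 at -1.15 (SE 0.16, adjusted p = 0.00267 by edgeR), where the males stood at 28.1, 36.9 and 29.3 CPM in WT and at 32.3, 29.0 and 32.7 in KO. Among the others were the accessory subunits Ndufs6, Ndufa1, Ndufa2, Ndufa7, Ndufa8, Ndufb1, Ndufb3, Ndufb5, Ndufb6, Ndufb8, Ndufb11 and Ndufc1. None of the 8 assembly factors was called. At an unadjusted p under 0.05 by edgeR, 3 of them were below 0, beside 3480 of all 17893 genes.

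All 4 complex II genes were called for the interaction, at -0.88 for Sdhd, -0.63 for Sdhc, -0.57 for Sdhb and -0.49 for Sdha (adjusted p = 0.0038, 0.0303, 0.0357 and 0.0366 by edgeR). With the replicate number as a block, Sdha, Sdhb, Uqcrc2 of complex III and Cox5b of complex IV were no longer called. In males Sdhd stood at 27.2, 34.5 and 29.6 CPM in WT and at 32.8, 31.5 and 29.6 in KO, and these overlap. In complex III, 5 of 8 were called, Uqcrh, Uqcrfs1, Uqcrc2, Uqcr10 and Uqcrq, with Uqcrh at -1.06 (adjusted p = 0.00404 by edgeR). Sdha, Uqcrc2 and Atp5f1b were lost with the authors' divisors, Sdha also without a filter on low counts, and Uqcrq, Cox5b and Atp5mc3 with upper-quartile scaling. In males Uqcrh was at 17.32, 25.64 and 20.04 CPM in WT and at 22.9, 24.2 and 24.6 in KO.

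In complex IV, 10 of 16 were called, Cox4i1, Cox5a, Cox5b, Cox7a2, Cox7a2l, Cox7b, Cox7c, Cox8a, Cox8b and Ndufa4. Cox7a2 was at -1.17 (SE 0.17, adjusted p = 0.00294 by edgeR), with the males at 34.5, 44.6 and 36.1 CPM in WT and at 43.3, 38.1 and 39.9 in KO. Cox8a was at -0.91 (adjusted p = 0.00432 by edgeR). In complex V, 11 of 18 were called, Atp5f1a, Atp5f1b, Atp5f1c, Atp5f1d, Atp5mc1, Atp5mc3, Atp5mj, Atp5mk, Atp5pb, Atp5pd and Atp5po, with Atp5pb at -0.78 (adjusted p = 0.00948 by edgeR). These include the catalytic head, the central stalk, the peripheral stalk and the membrane ring.

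Cox8b, the heart, muscle and brown fat form of COX8, had the largest interaction at -3.71 (SE 1.12, adjusted p = 0.0307 by edgeR) on low levels. It stood at 0.214, 0.852 and 2.16 CPM in the WT females, 0.240, 0.638 and 0.322 in the KO females, 0.226, 0.156 and 0.157 in the WT males and 0.613, 1.85 and 0.251 in the KO males. WT female 3 and KO male 2 were the highest, and these were also the libraries in which Ucp1, the uncoupling protein of brown fat, reached 7.87 and 3.66 CPM. Without KO male 2 the interaction was -2.65 (adjusted p = 0.0914 by edgeR) and without WT female 3 it was -2.78 (adjusted p = 0.083 by edgeR), and the call was also lost without KO female 1, KO female 3, WT male 1 or WT male 3. Summed fat markers were 3.81 to 87.5 CPM in the WT females, 2.55 to 6.61 in the KO females, 1.59 to 1.87 in the WT males and 4.50 to 62.3 in the KO males, and their part in the Cox8b values was not tested.

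**Figure D3:**
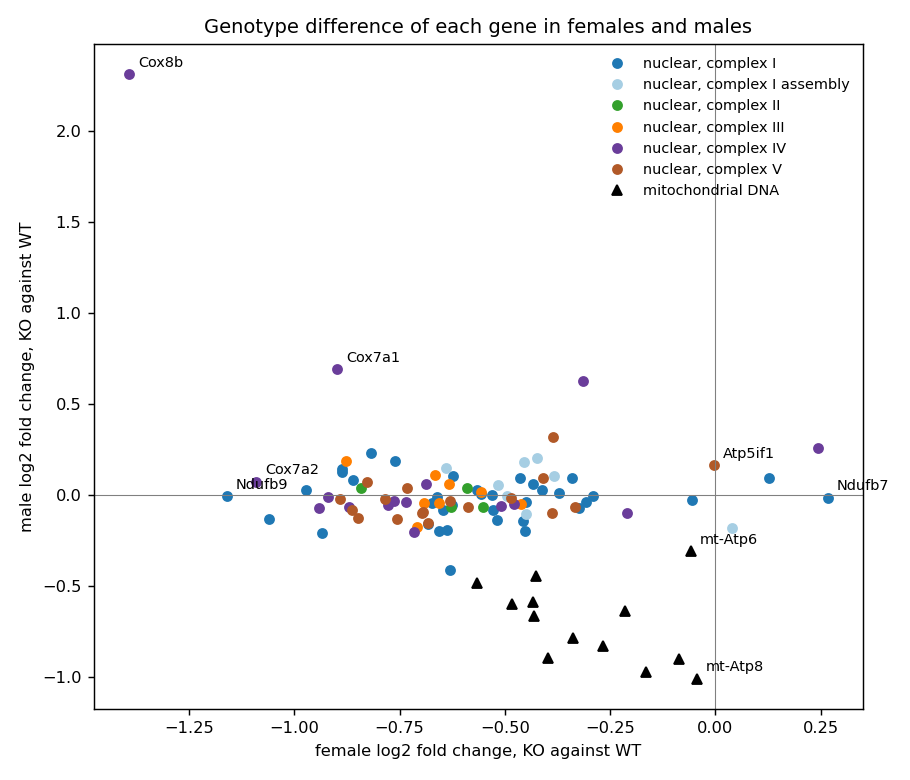
Log2 fold change of KO against WT in females (horizontal axis) and in males (vertical axis) for the 104 genes tested, with 1 point per gene, circles for nuclear genes coloured by complex and triangles for mitochondrial DNA. The nuclear genes lie to the left around a male value of -0.02 with Cox8b at 2.31 apart, and the 13 triangles lie lower, at -0.30 to -1.01 in males.

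The sexes were also compared within each genotype. In WT, 8 of the 104 genes were lower and 19 were higher in males than in females by edgeR. Over all genes tested, 16.0% were lower and 20.5% higher, so that the number of higher genes is near the background and no result about these genes as a group. The 19 were all nuclear. Of the 8, 6 were mitochondrial, mt-Nd2, mt-Nd3, mt-Nd4l, mt-Nd5, mt-Nd6 and mt-Atp8, and the others were Ndufaf4 and Cox8b. The median log2 fold change (male against female) was 0.11 for the nuclear and -0.58 for the mitochondrial genes, beside 0.06 over all genes tested. As an unscaled share of all counts, the mitochondrial genes took 1.05%, 1.29% and 1.09% in the WT males. In the WT females they took 0.817%, 0.975% and 0.884%, so without scaling every male was higher. The nuclear genes took 0.415%, 0.368% and 0.405% in the WT males against 0.178%, 0.192% and 0.184% in the WT females. The TMM factors were 1.04 to 1.45 in the WT males and 0.625 to 0.759 in the WT females, and their part was not tested. The counts turned on the scaling, with 16 lower and 16 higher under upper-quartile scaling and 11 lower and 8 higher under the divisors of the deposited normalized table, and the nuclear median was -0.03 to 0.11 over the settings. They also turned on single libraries. The number of lower genes was 2 without WT male 1 or WT male 3, 3 without WT female 3, 5 without WT female 2, 16 without WT female 1 and 17 without WT male 2, and the number of higher genes was 11 without WT female 1 and 12 without WT male 2. The mitochondrial median was -0.87 without WT male 2 and -0.43 without WT male 1. The nuclear median was -0.02 without WT female 1 and 0.19 without WT female 3. Cox8b was at -2.55 (adjusted p = 0.0273 by edgeR), and at -1.56 without WT female 3 (adjusted p = 0.17 by edgeR).

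The gene mt-Nd6, the one protein-coding gene transcribed from the other strand of mitochondrial DNA, had the largest difference of the mitochondrial genes between the WT sexes. It stood at 168, 197 and 165 CPM in the WT females and at 80.6, 87.3 and 63.6 in the WT males, without overlap, and was lower in males with a log2 fold change of -1.20 (SE 0.16, adjusted p = 7.6e-05 by edgeR), a call that was lost under the divisors of the deposited normalized table (adjusted p = 0.0632 by edgeR). In the KO it stood at 174, 155 and 128 CPM in females and at 41.7, 53.0 and 54.6 in males, a log2 fold change of -1.61 (adjusted p = 7.27e-06 by edgeR). Next in order of p among the lower genes were Ndufaf4 at -0.67 (adjusted p = 0.0024 by edgeR) and mt-Nd3 at -0.94 (adjusted p = 0.0145 by edgeR), the latter not called without WT female 3, WT male 1 or WT male 3.

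Of the genes higher in males, Atp5if1, the inhibitor of ATP synthase, stood at 9.91, 14.7 and 10.9 CPM in the WT males, above 5.24 to 5.43 in the WT females, and was higher by 1.15 on the log2 scale (SE 0.14, adjusted p = 3.36e-05 by edgeR). Ndufa1, an accessory subunit of complex I encoded on the X chromosome, stood at 7.88, 10.6 and 9.98 CPM in the WT females and at 17.0, 24.0 and 16.1 in the WT males (log2 fold change 1.01, SE 0.15, adjusted p = 0.000228 by edgeR). Cox5a, a structural subunit of complex IV, was higher by 0.70 (adjusted p = 0.000391 by edgeR). The WT males and WT females do not overlap for Atp5if1 and Ndufa1. Of all genes tested, 26.7% lay higher in WT males in this way and 20.9% lower. Of the widely expressed forms of complex IV subunits, Cox6a1, Cox4i1, Cox6b1, Cox8a and Cox7a2 were higher in males by 0.63, 0.55, 0.52, 0.45 and 0.41 (adjusted p = 0.00981, 0.00436, 0.0156, 0.00708 and 0.0184 by edgeR), while Cox7b and Ndufa4 were at 0.06 and 0.08 and did not pass the test. All 5 calls were lost under the divisors of the deposited normalized table (largest adjusted p 0.223, 0.104, 0.217, 0.147 and 0.298 by edgeR over the alternatives). Those of Cox6b1 and Cox7a2 were also lost with only the libraries compared, and that of Cox7a2 without WT female 1, WT female 2 or WT male 2. Markers of ducts and ionocytes moved with the sex, with summed levels of 501 to 562 CPM in the WT males against 255 to 334 in the WT females, and 5 of 9 were called higher. Of the other lists, 5 of 7 granular tubule markers were called higher and 2 lower, and 5 of 6 fat and 5 of 8 acinar markers were called lower. Their part in the result was not tested.

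In the KO, 10 genes were lower in males and 73 were higher by edgeR, whereas 20.3% of all genes tested were lower and 23.2% higher. The 10 lower genes were all mitochondrial and the 73 higher genes all nuclear. The medians were 0.71 for the nuclear and -0.85 for the mitochondrial genes, beside -0.02 over all genes tested. The 3 mitochondrial genes not called were mt-Co2, mt-Co3 and mt-Atp6, and without KO female 2 only 6 were called lower. The duct and ionocyte markers summed to 454 to 579 CPM in the KO males against 239 to 285 in the KO females, and 8 of 9 were called higher. Blood markers summed to 2.89 to 9.86 against 1.28 to 1.86 CPM, and 3 of 4 were called higher. Of the other lists, 4 of 6 fat and 5 of 7 granular tubule markers were called higher, with 1 granular tubule marker lower, and 5 of 8 acinar markers were called lower. The part of these in the result was not tested. The KO groups of this comparison are those of the genotype comparisons above, so its values are no separate evidence of them.

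The balance of the 2 genomes can be read within each library, where the scaling cancels. The log2 ratio of summed nuclear to summed mitochondrial counts was -2.20, -2.34 and -2.26 in the WT females, -2.62, -2.56 and -2.35 in the KO females, -1.33, -1.80 and -1.42 in the WT males and -0.80, -1.08 and -1.01 in the KO males. The males thus had a higher nuclear share in either genotype, and no 2 groups overlapped. The female separation was lost with near-identical copies added, where KO female 3 at -2.638 was above WT female 2 at -2.707 and WT female 3 at -2.642, and with the median of log2 counts over genes, where KO female 3 was again above these libraries. The mean ratios were -2.27 ± 0.07, -2.51 ± 0.14, -1.52 ± 0.25 and -0.96 ± 0.14 (SD, n = 3), in the same order. The difference between KO and WT was -0.24 in females and 0.56 in males. Without KO female 3 the female difference was -0.32, and without WT male 2 the male difference was 0.42. No test was made of this ratio.

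**Figure D4:**
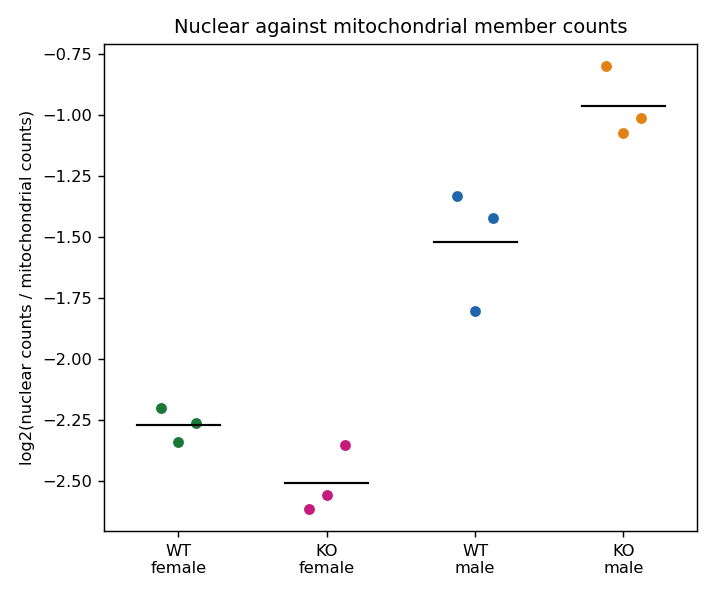
Log2 of summed nuclear over summed mitochondrial counts of the respiratory chain genes (vertical axis) in the 4 groups (horizontal axis), with 1 point per library and a bar at the mean of 3. Female libraries lie at -2.62 to -2.20 and male libraries at -1.80 to -0.80, with the KO females lowest and the KO males highest.

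Where near-identical copies shared the reads, the copies were added to the gene before the fit, a choice made after the data were seen. In this way 33 copies were added to 22 genes, 16 nuclear and 6 mitochondrial, and 69 genes were called lower in the KO females, 0 in the KO males and 45 for the interaction. For mt-Co3 the level moved with the split. The gene alone stood at 1063, 571 and 1082 CPM in the WT females, and its copy at 1333, 3043 and 3274. Their sum was 2396, 3614 and 4356 CPM in the WT females, 2386, 2512 and 1931 in the KO females, 1532, 3011 and 1614 in the WT males and 1481, 1389 and 1401 in the KO males. The sum was lower in WT males than in WT females (log2 fold change -0.75, adjusted p = 0.0421 by edgeR), whereas the gene alone had 0.21. In the KO males the sum had a log2 fold change of -0.53, and the gene alone had -0.97, whereas in the KO females the sum had -0.60 and the gene alone -0.17. The interaction of mt-Co3 was 0.81 for the gene alone and -0.07 for the sum, and neither passed the test.

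The pair mt-Atp6 and Atp6-ps summed to 907, 1377 and 1433 CPM in the WT females and to 592, 1047 and 595 in the WT males, and the sum was lower in males (log2 fold change -0.73, adjusted p = 0.0254 by edgeR). It was also lower in KO males than in KO females (-1.03, adjusted p = 0.00345 by edgeR), where the gene alone was not called. Between genotypes the gene alone and the sum had -0.06 and -0.34 in females and -0.30 and -0.63 in males, without a call. Among nuclear genes, Ndufb4, an accessory subunit of complex I, has the copies Ndufb4c and Ndufb4b at 99.488% and 99.125% identity. Their sum stood at 27.2, 30.5 and 41.7 CPM in the WT females and at 17.5, 23.1 and 21.5 in the KO females, and was lower (log2 fold change -0.68, SE 0.16, adjusted p = 0.00671 by edgeR), whereas Ndufb4 alone was not called at -0.29. Atp5mc2, 1 of 3 genes for the c subunit of the membrane ring, held 455 counts over all libraries and its copy Gm70834, 99.387% identical over 653 bases, held 22285. The sum fell by 0.76 in the KO females (adjusted p = 0.00195 by edgeR), whereas the gene alone was not called at -0.89.

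**Figure D5:**
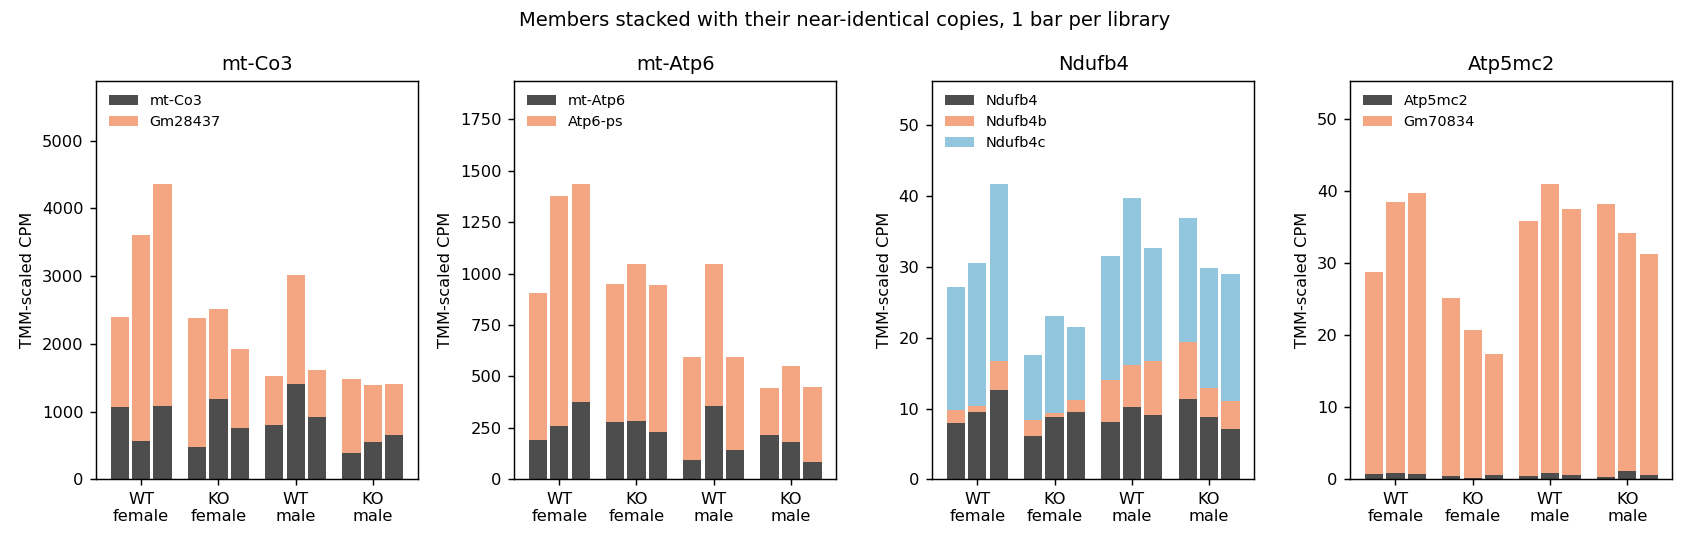
TMM-scaled CPM (vertical axis) of mt-Co3, mt-Atp6, Ndufb4 and Atp5mc2 stacked with their near-identical copies, with 1 bar per library in 4 groups (horizontal axis). The share of the gene itself varies between libraries for mt-Co3, as with 571 CPM of 3614 in WT female 2 and 918 of 1614 in WT male 3, and nearly all of the Atp5mc2 sum is assigned to Gm70834.

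The promoters of the nuclear genes were read because these genes moved together in females. RefSeq promoters (GRCm38.p6, 250 bases before to 50 after the start) were found for 76 of the 98 nuclear genes. The stretches printed are the 150 bases before the start of the called gene with the smallest female p in each complex that had 1 promoter entry, 5′ to 3′ on the gene's strand, with capitals for a searched motif. All 5 genes lie on the minus strand, at chr13:73328483-73328632 for Ndufs6, chr9:50603850-50603999 for Sdhd, chr4:116075071-116075220 for Uqcrh, chr9:79759854-79760003 for Cox7a2 and chr3:105959264-105959413 for Atp5pb.
Ndufs6: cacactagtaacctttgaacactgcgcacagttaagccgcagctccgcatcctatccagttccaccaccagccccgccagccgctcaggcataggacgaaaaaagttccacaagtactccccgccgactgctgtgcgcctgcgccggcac
Sdhd: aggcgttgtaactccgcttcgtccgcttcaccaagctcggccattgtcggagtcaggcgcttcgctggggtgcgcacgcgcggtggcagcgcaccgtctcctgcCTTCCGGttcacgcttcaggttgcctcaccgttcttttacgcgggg
Uqcrh: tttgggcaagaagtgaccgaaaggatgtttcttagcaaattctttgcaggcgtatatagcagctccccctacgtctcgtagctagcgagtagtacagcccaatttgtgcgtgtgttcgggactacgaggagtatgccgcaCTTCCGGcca
Cox7a2: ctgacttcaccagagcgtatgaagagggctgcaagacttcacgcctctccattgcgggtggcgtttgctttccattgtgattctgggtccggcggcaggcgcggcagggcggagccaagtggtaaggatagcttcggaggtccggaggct
Atp5pb: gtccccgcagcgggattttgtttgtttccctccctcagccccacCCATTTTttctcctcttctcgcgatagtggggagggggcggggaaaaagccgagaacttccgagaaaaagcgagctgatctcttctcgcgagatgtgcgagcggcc
The motifs searched on both strands were GCATGCG (core of the NRF1 site), CCGGAAG (ETS factors), AANATGG (YY1) and TATAAA (the TATA box). The capitals mark an ETS motif in Sdhd and Uqcrh and a YY1 motif in Atp5pb, and Ndufs6 and Cox7a2 hold none of the 4 in the bases printed. Over the whole 300 bases, the NRF1 core was in 13 of the 76 genes (17.1%), against 4.01% of the 27025 genes with a promoter. ETS was in 18 (23.7%), against 9.93%. YY1 was in 22 (28.9%), against 18.2%, and TATAAA was in 7 (9.21%), against 15.7%. Of the 55 genes called lower in the KO females, 9 held the NRF1 core, 12 ETS, 16 YY1 and 4 TATAAA, and of the 21 not called, 4, 6, 6 and 3 did. These are matches of letters in a window, and binding was not measured.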

How the data were processed

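The authors sequenced total RNA of 12 glands (100 ng per library, paired reads of 100 bases, ribosomal RNA depletion and a stranded kit by the protocol, although the labels give polyA RNA as the molecule). Per the labels and the study's methods, the authors made the estimated counts per gene with Salmon 1.10.1 against Gencode M35 (GRCm39). A second deposited table holds a signal, the same counts divided by a factor per gene and library, whose origin is not given in the sources used here, and only its divisors were used, as an alternative scaling. Of 56065 gene IDs, 55563 were named through Gencode M39. Here the estimated counts were rounded and fitted in edgeR 4.0.16 (R 4.3.3, TMM, filterByExpr, quasi-likelihood test, 1 mean per group over all 12 libraries), with Benjamini-Hochberg adjustment over 17893 genes and a threshold of 0.05. CPM values are relative to the TMM-scaled library size. Intervals of depth were not needed, since 103 of 104 genes tested had at least 10 counts in every library.

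The genes and lists were chosen with earlier results of these data known. Genes were named by rule: all mitochondrial genes, the 2 lower and the 2 higher of smallest female p per class, all Sdh genes, the called or the 5 first genes in males, the genes called for the interaction, the 3 lower and 3 higher of smallest p between WT sexes, forms with tissue-restricted paralogs and Atp5if1, with up to 4 genes per further list. Some genes that this rule would name are not reported here. Individual genes of the comparison of KO sexes, copies and highest levels were named after their values were seen. Summed markers were at most 0.269 CPM for lymphocytes, 1.28 to 9.86 for blood, 1.06 to 2.77 for skeletal muscle and 0.0449 to 1.10 for tuft cells. Of 5 tuft genes only Avil passed the filter, and it was called higher in KO females at 2.06. Copies were found with blastn 2.17.0 at 97% identity. Libraries of 1 group differed beyond counting noise (chi-square per degree of freedom at least 38.7), and same-numbered libraries of both genotypes did not deviate together (Pearson r -0.11 to 0.05 in females and -0.13 to 0.09 in males), so numbers were not treated as pairs. Between same-numbered libraries of the sexes, r was 0.27, -0.06 and -0.01 in WT and 0.07, 0.09 and -0.04 in KO. The highest of these was for WT female 1 with WT male 1. The labels name separate mice, and p-values measure the spread between them. The alternatives were RLE, upper-quartile and the authors' divisors, TMM without mitochondrial genes and the 20 most abundant genes, 2 other filters, DESeq2 1.42.0, the replicate number as a block, only the libraries compared, and each library left out. The fit was tested on simulated data.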

Additional observations from a re-analysis of the deposited data

Results flagged for a closer look

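The genotype difference differed between the sexes, by the test of the interaction in edgeR, for 44 of the 104 respiratory chain genes, all nuclear and all lower in KO females relative to the male difference. The 5 genes of smallest p and the gene of the largest estimate, as female minus male log2 fold change, were Ndufb9 at -1.15, Sdhd at -0.88, Uqcrh at -1.06, Cox7a2 at -1.17, Cox8a at -0.91 and Cox8b at -3.71. For Ndufb9, Sdhd, Uqcrh, Cox7a2 and Cox8a the male estimates were -0.01, 0.04, 0.19, 0.08 and -0.01. For Cox8b the estimates were -1.39 in females and 2.31 in males, neither of which passed its own test, with adjusted p of 0.18 and 0.271 by edgeR, and 6 libraries each ended the call when left out.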

How the results depend on the processing

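Of the genes called, 62 of 67 in females, 21 of 44 for the interaction, 7 of 27 between WT sexes and 66 of 83 between KO sexes were called under every alternative, and the female count was 63 to 73 over 10 other settings and 63 to 78 with a library left out. Under the authors' divisors, the nuclear median was -0.79 in females and -0.78 for the interaction, the count higher in WT males was 8, the count lower in KO males than KO females was 5 with a mitochondrial median of -0.53, and Ndufb11 between WT sexes reversed to -0.000409, from a called 0.36. Upper-quartile scaling moved the median of all genes to 0.13 in females and gave 1 gene higher for the interaction, 16 lower between WT sexes and a nuclear median of 0.54 between KO sexes. Without the filter, 6 genes were lower in KO males and 2 higher for the interaction, and with at least 10 counts in every library 1 was. DESeq2 gave 6 lower in KO males, 2 higher for the interaction and 16 lower between WT sexes. With the replicate block, 68 genes were lower in females, 1 in males (mt-Nd4l) and 44 lower and 2 higher (mt-Atp8 and mt-Nd4l) for the interaction, and the numbers carry no pairing by design. As a median of log2 counts, the ratio difference between WT sexes was 0.95. With each library left out in turn, the nuclear median was -0.80 to -0.56 in females and -0.77 to -0.51 for the interaction, the interaction counts were 21 to 72 lower and 0 to 1 higher, and the counts were 2 to 17 lower and 11 to 18 higher between WT sexes and 6 to 10 lower between KO sexes. Fewer libraries were fitted in these, and the cause of the other changes was not tested. Low counts limit Cox8b, Cox7a1, Cox6b2 and Atp5mc2.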
